A study of Mus musculus with 20 samples.

Results

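Lama5, Ecm1, Podxl, Sema7a and Myo6 are 5 of the 23992 gene symbols counted in mouse regulatory T cells (Tregs) and CD8+ T cells, and all 5 were found in the files. They were chosen from measured values, namely their higher RNA in Tregs given IL-2 or IL-2-REH than in unstimulated Tregs, so this rise is described below and was not tested. Both cell types came from mouse spleen and lymph node. The Tregs were GFP+ cells of B6-Foxp3EGFP mice, whose GFP reports the transcription factor Foxp3. The CD8+ T cells came from C57BL/6J mice by the study's methods, whereas the sample records give C57BL/6N as the strain of all samples. The age of the mice is not given in the sources used here, nor is the number of mice behind a library. Each cell type was unstimulated or received 200 nM IL-2 or 200 nM IL-2-REH for 90 min or 4 hr. The labels give 0 h for the unstimulated libraries, and there is no untreated library of 90 min or 4 hr. In a change against unstimulated cells, the cytokine and the time in culture therefore cannot be told apart. IL-2-REH is a variant of IL-2 changed where it contacts the common gamma chain of the receptor, which weakens that contact and makes it a partial agonist. Each of the 5 Treg groups had 3 libraries, numbered 1 to 3, and each of the 5 CD8+ groups had 1 library, so the CD8+ values carry no replicate error. Nothing in the labels says that libraries of a group came from separate mice, so p-values measure the spread between these libraries, which may be technical.

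IL-2 binds a receptor made of an alpha chain (CD25, the product of Il2ra), a beta chain and the common gamma chain, and signals mainly through STAT5. Tregs express CD25 at rest and are sensitive to IL-2, whereas resting CD8+ T cells have little of it. The 5 genes encode proteins that act outside the cell, at its surface or under the membrane. Lama5 encodes the alpha 5 chain of laminins, the trimers of an alpha, a beta and a gamma chain that form the sheet of basement membranes. Ecm1 encodes extracellular matrix protein 1, a secreted glycoprotein that T helper 2 cells also make. Podxl encodes podocalyxin, a sialomucin of the CD34 family best known from kidney podocytes and endothelium, whose tail binds ezrin through NHERF adaptors. Sema7a encodes semaphorin 7A, which a glycosylphosphatidylinositol anchor holds on the surface of lymphocytes and which binds plexin C1 and beta 1 integrins. Myo6 encodes myosin VI, the motor that moves toward the minus end of actin filaments and carries endocytic vesicles through adaptors such as GIPC1, optineurin and TAX1BP1.

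The cell labels held in these libraries. The summed RPKM (reads scaled by exon length and by the mapped reads of the library) of 6 Treg markers, among them Foxp3 and Il2ra, ranged from 810 to 1490 in Treg libraries and from 37.4 to 93.0 in CD8+ libraries. The sum of 6 markers of CD8+ T cells ranged from 658 to 1470 in CD8+ libraries and from 97.7 to 290 in Treg libraries. Of these, Cd8a ranged from 103 to 256 RPKM in CD8+ libraries and from 0.0879 to 1.84 in Treg libraries. In Treg libraries, Cd3e ranged from 84.4 to 251, Ccl5 from 4.84 to 30.2, Nkg7 from 1.48 to 14.2 and Cd8b1 from 4.25 to 10.8. Since Lama5 and Podxl are also genes of endothelium and epithelium, markers of those cells were summed. Of the 6 endothelial markers, 5 did not exceed 0.117 RPKM in any Treg library (Cdh5 at most 0.0619), and the sum of 17.8 to 39.8 came from Pecam1, which T cells also express. The sum of the 6 epithelial markers was 3.28 to 9.37 in Tregs. Their highest RPKM in a Treg library was 8.52 for Epcam, 1.19 for Krt18, 0.282 for Cdh1, 0.0984 for Cldn4, 0.0183 for Krt8 and 0.00967 for Krt19. The epithelial sum was 3.94 to 4.53 in unstimulated Tregs. With IL-2 it was higher, at 5.54 to 9.37 after 90 min and 5.56 to 9.12 after 4 hr. With IL-2-REH it overlapped the unstimulated range, at 3.28 to 6.04 after 90 min and 3.58 to 6.96 after 4 hr. The 5 genes described here were chosen for a rise with both cytokines, so their own values are not set against these sums. The fibroblastic markers summed to 0.139 to 1.27, those of platelets to 0.487 to 4.38, of dendritic cells to 1.95 to 6.54, of B cells to 1.82 to 18.0, of macrophages (5 of 6 listed genes) to 7.66 to 54.5 and of erythroid cells to 3.04 to 134 in Tregs. The part of these cells in the results was not tested. In bulk RNA, fewer cells that express a gene and less RNA per cell cannot be told apart. Between 20201392 and 63903764 reads fell on genes in Treg libraries and between 38201667 and 45189835 in CD8+ libraries. Unstimulated replicate 1 stood apart: 1091 of 10473 expressed genes differed there by over 1 on the log2(RPKM + 1) scale from both other unstimulated libraries, against 52 and 69 for those. The IL-2 library 3 at 4 hr, the shallowest, had 813 such genes and the other Treg libraries 28 to 289. Fold changes of the 5 genes and counts of the gene lists against unstimulated Tregs are therefore also given without replicate 1.

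The promoters are shown for Lama5 and Ecm1, whose RNA levels ran most closely together among the 5 genes but whose upstream sequences differ. The lines give the 250 bases before the start that RefSeq takes for the gene on GRCm38.p6, for which 4 of the 5 genes have an entry (Podxl has none). That start lies within 3 bases of the first base of the counted transcript as GENCODE M21 places it. RefSeq's full gene extents reach further upstream than these transcripts and cover all 250 bases of the Ecm1 and Sema7a windows, 45 bases of the Lama5 window and 58 bases of the Myo6 window. Capitals mark GGGCGG or its reverse complement CCGCCC (the GC box), TGANTCA (the core of AP-1 sites) and TATAAA (the TATA box), all searched on both strands. These 3 motifs were picked after the sequences had been read.
Lama5 (minus strand, chr2:180225860-180226109): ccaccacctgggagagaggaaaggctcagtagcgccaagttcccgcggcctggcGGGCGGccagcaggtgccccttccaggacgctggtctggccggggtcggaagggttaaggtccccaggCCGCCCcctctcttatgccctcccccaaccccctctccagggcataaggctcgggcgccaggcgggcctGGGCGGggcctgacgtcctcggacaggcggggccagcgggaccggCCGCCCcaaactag
Ecm1 (minus strand, chr3:95739570-95739819): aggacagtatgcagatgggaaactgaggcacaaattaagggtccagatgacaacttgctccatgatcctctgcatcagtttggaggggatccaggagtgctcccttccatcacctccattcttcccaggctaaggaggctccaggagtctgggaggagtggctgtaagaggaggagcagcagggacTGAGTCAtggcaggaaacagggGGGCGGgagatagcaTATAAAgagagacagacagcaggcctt
The Lama5 window held 72.4% G and C and 19 CpG, against medians of 52.4% and 6 over all 32851 promoter entries. It had 4 GC boxes, with no TATAAA and no TGANTCA. The Ecm1 window held 54.0% G and C and 1 CpG, with TGAGTCA starting 64 bases, a GC box 42 bases and TATAAA 27 bases before that start. The windows of Sema7a (chr9:57939862-57940111, plus strand) and Myo6 (chr9:80164784-80165033, plus strand) were like that of Lama5, with 66.4% and 67.6% G and C, 17 and 18 CpG and 2 and 7 GC boxes. Of all promoters, 32.7% held a GC box, 6.75% TGANTCA and 12.4% TATAAA. The STAT motif TTCNNNGAA was in none of the 4 windows and in 7.02% of all promoters. The form with 4 bases between TTC and GAA was in none of the 4 windows and in 5.85% of all promoters. A match is a run of letters and not a site, and no match says only that these letters are not in this window.

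Lama5 (NM_001081171) spans 180176373 to 180225859 on chromosome 2 of GRCm38 (minus strand) and has 79 exons of 11388 bases. It was nearly silent in unstimulated Tregs, with an RPKM of 0.240, 0.476 and 0.322 in replicates 1, 2 and 3. After 90 min of IL-2 it was at 2.60, 1.57 and 2.19, and after 90 min of IL-2-REH at 1.51, 1.02 and 1.47. All 6 of these libraries lay above the 3 unstimulated ones. After 4 hr of IL-2 it was at 6.52, 12.9 and 16.5, and 4 hr of IL-2-REH gave 3.39, 4.47 and 6.23. Unstimulated Tregs averaged 0.346 ± 0.119 RPKM, IL-2 at 4 hr gave 11.98 ± 5.06, and the variant gave 4.70 ± 1.43 (SD, n = 3 each). The fitted log2 fold changes against unstimulated Tregs were 2.78 (SE 0.36) for IL-2 and 2.12 (SE 0.35) for IL-2-REH at 90 min, and 5.23 (SE 0.40) and 3.81 (SE 0.38) at 4 hr. Without unstimulated replicate 1, where Lama5 was lowest, they were 2.64 and 1.98 at 90 min and 5.08 and 3.67 at 4 hr. At its highest, Lama5 stood at rank 4212 of the 23992 symbols by mean RPKM, against 12061 in unstimulated Tregs. Mir7005, a microRNA gene on the same strand, lies within Lama5 and shares none of its annotated exon bases.

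Ecm1 (NM_007899) lies on the minus strand of chromosome 3 from 95734147 to 95739569 and has 11 exons of 1899 bases. It was the most abundant of the 5 genes per length in every group. Its RPKM was 41.3, 60.2 and 44.4 in the 3 unstimulated Treg libraries. With IL-2 it was at 145, 177 and 173 after 90 min and at 263, 530 and 390 after 4 hr. With IL-2-REH it was at 99.7, 104 and 118 after 90 min and at 190, 215 and 292 after 4 hr. Its 4 hr means, 394 ± 134 for IL-2 and 232 ± 53.1 for the variant (SD, n = 3 each), put Ecm1 at ranks 105 and 155 of all symbols, from 956 in unstimulated Tregs. The log2 fold changes against unstimulated Tregs were 1.94 (SE 0.27) and 1.31 (SE 0.27) at 90 min and 3.09 (SE 0.29) and 2.29 (SE 0.28) at 4 hr, for IL-2 and IL-2-REH. Without unstimulated replicate 1 they were 1.92, 1.29, 3.06 and 2.25 in the same order. A second transcript of Ecm1, NM_001252653, is 1896 bases long and holds nearly the same reads. Mir7014 lies within Ecm1 on the same strand and shares none of its annotated exon bases.

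Podxl (NM_013723) lies on the minus strand of chromosome 6 from 31519488 to 31563981 and has 8 exons of 5330 bases. It was the rarest of the 5, and its values rest on 12 to 198 reads a library in Tregs. The RPKM in replicates 1, 2 and 3 was 0.0362, 0.0360 and 0.0556 unstimulated. After 90 min, IL-2 gave 0.183, 0.117 and 0.164 and IL-2-REH gave 0.185, 0.112 and 0.171, nearly the same series in the same order of replicates. After 4 hr, IL-2 gave 0.417, 0.418 and 0.295 and IL-2-REH gave 0.417, 0.241 and 0.239. No stimulated library overlapped the unstimulated ones. The log2 fold changes against unstimulated Tregs were 1.98 (SE 0.39) and 1.99 (SE 0.39) at 90 min and 3.19 (SE 0.40) and 2.80 (SE 0.40) at 4 hr, for IL-2 and IL-2-REH. Leaving out unstimulated replicate 1 gave 1.95, 1.96, 3.16 and 2.76. At its highest group mean of 0.377 RPKM, Podxl ranked 11777 of all symbols.

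Sema7a (NM_011352) lies on the plus strand of chromosome 9 from 57940113 to 57962865 and has 14 exons of 3275 bases. Of the 5 genes it had the smallest relative spread between replicates in unstimulated Tregs (a coefficient of variation of 5.62%), at 0.752, 0.841 and 0.799 RPKM. With IL-2 it was at 1.88, 2.08 and 1.94 after 90 min and at 2.41, 3.10 and 2.91 after 4 hr. With IL-2-REH it was at 2.13, 2.62 and 2.02 after 90 min and at 3.14, 3.18 and 2.69 after 4 hr. Most of the rise was already there at 90 min, and the values of both cytokines overlapped at both times. The log2 fold changes against unstimulated Tregs were 1.45 (SE 0.21) and 1.64 (SE 0.21) at 90 min and 1.89 (SE 0.21) and 1.91 (SE 0.21) at 4 hr, for IL-2 and IL-2-REH, and 1.49, 1.68, 1.92 and 1.95 without unstimulated replicate 1.

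Myo6 (NM_001039546) lies on the plus strand of chromosome 9 from 80165031 to 80311729 and has 33 exons of 7868 bases. Its RPKM in unstimulated Tregs was 0.642, 1.56 and 1.19. With IL-2 it was already at its highest after 90 min, at 5.61, 5.01 and 5.53, and was at 4.47, 4.92 and 4.06 after 4 hr. With IL-2-REH it was at 4.63, 2.29 and 2.93 after 90 min and at 4.42, 3.47 and 3.79 after 4 hr. Myo6 was thus the only one of the 5 genes whose 3 IL-2 libraries at 4 hr all lay below the 3 at 90 min. The log2 fold changes against unstimulated Tregs were 2.44 (SE 0.26) and 1.69 (SE 0.25) at 90 min and 2.09 (SE 0.25) and 1.83 (SE 0.25) at 4 hr, for IL-2 and IL-2-REH. Without unstimulated replicate 1, they were 2.21 and 1.46 at 90 min and 1.86 and 1.60 at 4 hr. Gm27227, an annotated antisense gene, overlaps Myo6 on the other strand without sharing exon bases, and whether counting used the strand is not stated.

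**Figure D1:**
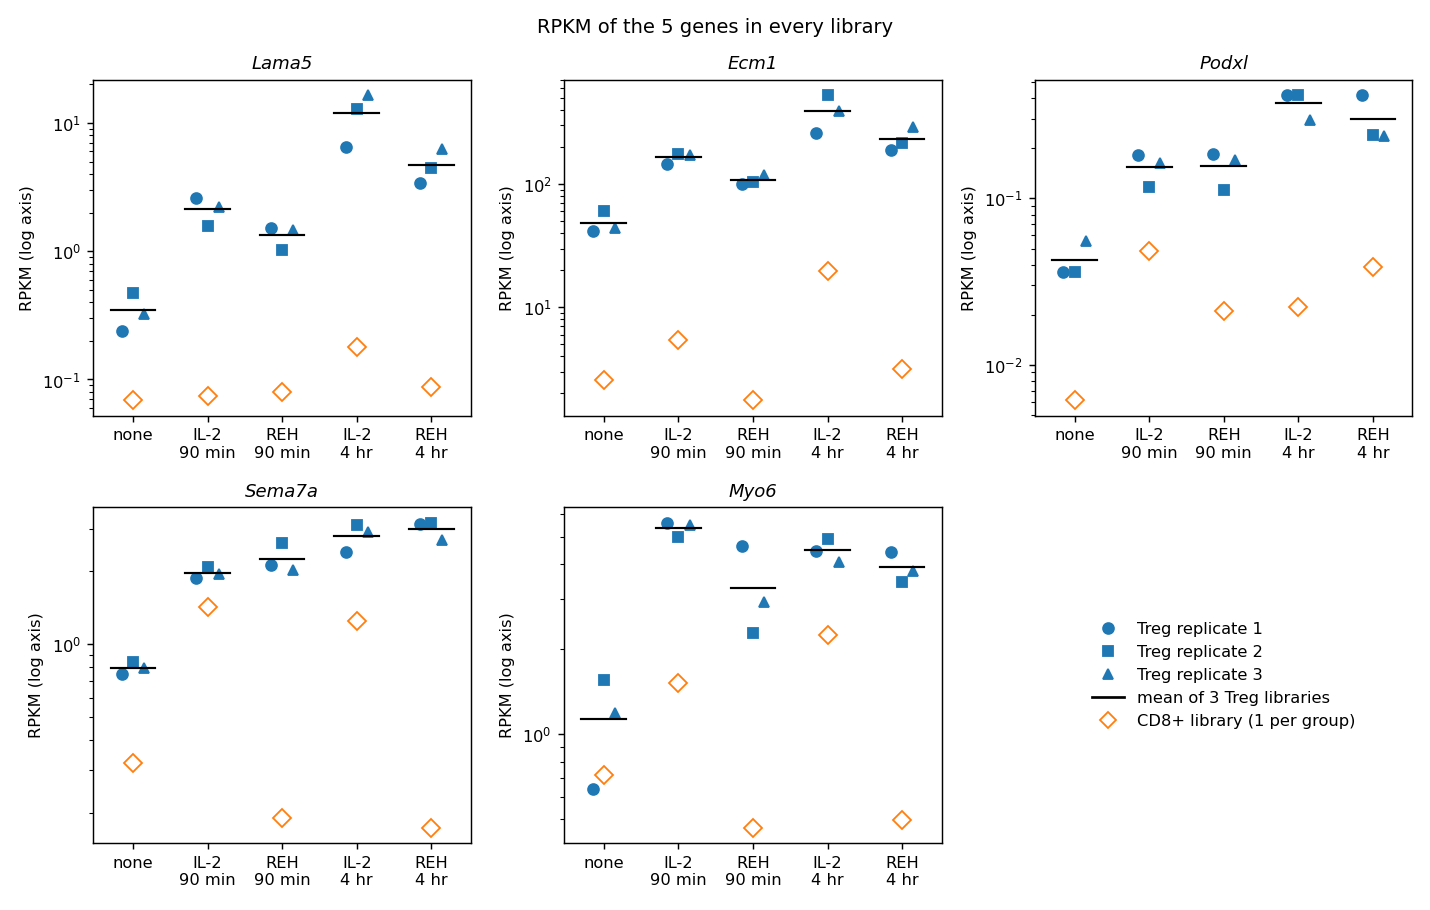
RPKM on a log axis of each gene in the 15 Treg libraries (filled symbols, 1 shape per replicate number, line at the mean of 3) and the 5 CD8+ libraries (open diamonds), unstimulated (none) or given IL-2 or IL-2-REH (REH). Lama5 rises from a mean of 0.346 to 11.98 RPKM with IL-2 at 4 hr, Myo6 is highest at 90 min of IL-2, and 24 of the 25 CD8+ diamonds lie below all Treg symbols of their group.

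By edgeR's quasi-likelihood test of read counts with Benjamini-Hochberg adjustment over 15009 genes, the members higher than in unstimulated Tregs at an adjusted p under 0.05 were 5 of 5 with IL-2 at 90 min (0.78% of all genes), 3 of 5 with IL-2-REH at 90 min (0.0933%), 5 of 5 with IL-2 at 4 hr (1.17%) and 5 of 5 with IL-2-REH at 4 hr (0.16%). Nothing is read from these counts, since the genes were chosen on these contrasts. The 2 short of the threshold at 90 min of IL-2-REH were Ecm1 and Podxl, and with the replicate number as a block all 5 were past it in each of the 4 contrasts, where 1.37%, 0.193%, 2.85% and 1.01% of all genes were higher in the same order.

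Whether the partial agonist left the genes lower than IL-2 did was compared directly. The choice of genes did not use this contrast, but it used the same libraries, each cytokine against unstimulated cells. The comparison is therefore not independent of that choice, and the shares of all genes are given for scale. There was 1 pair of molecules, at 1 dose and 2 times. In Tregs at 90 min, 3 of the 5 genes, Lama5, Ecm1 and Myo6, had all 3 IL-2-REH libraries below all 3 IL-2 libraries, as 3.04% of all genes did. The fitted log2 differences, IL-2-REH minus IL-2, were -0.66 for Lama5 (95% interval -1.39 to 0.06), -0.63 for Ecm1 (-1.20 to -0.06) and -0.75 for Myo6 (-1.27 to -0.22). None of the 5 genes passed the adjusted threshold (0 of 5, each with an adjusted p = 1 in edgeR, against 0.0133% of all genes lower), although 2 had an unadjusted p under 0.05. The intervals for Podxl (0.01, from -0.78 to 0.80) and Sema7a (0.19, from -0.24 to 0.62) span 0. They leave room for a lower level with IL-2-REH of up to 0.78 in Podxl and 0.24 in Sema7a on the log2 scale.

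At 4 hr, Lama5 was the one gene of the 5 with all 3 IL-2-REH libraries below all IL-2 libraries (1 of 5, against 2.36% of all genes). Within same-numbered pairs, its level with IL-2-REH was 52.0%, 34.6% and 37.7% of that with IL-2, after 58.2%, 65.1% and 66.9% at 90 min. The log2 difference was -1.42 (SE 0.34, 95% interval -2.16 to -0.69, adjusted p = 0.374 in edgeR, 0.09 with the replicate block). It passed the threshold with DESeq2, at -1.44 (adjusted p = 0.017), where 0.36% of genes were lower. It also passed with the block when unstimulated replicate 1 was left out, at -1.40 (adjusted p = 0.043 in edgeR), a fit chosen after seeing the data in which 0.445% of genes were lower. Ecm1 differed by -0.81 (95% interval -1.38 to -0.24, adjusted p = 1 in edgeR, 0.24 with the block). Its pairs stood at 72.2%, 40.6% and 74.9%, and the highest IL-2-REH library (292 RPKM) lay above the lowest IL-2 library (263 RPKM).

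The other 3 genes overlapped between the cytokines at 4 hr. The log2 differences were -0.39 for Podxl (95% interval -1.18 to 0.39), -0.26 for Myo6 (-0.79 to 0.26) and 0.03 for Sema7a (-0.41 to 0.46). For Sema7a, IL-2-REH gave 130%, 103% and 92.3% of the IL-2 level in the 3 pairs, and the interval leaves room for a difference of 0.41 downward on the log2 scale. For Myo6, the pairs moved from 82.6%, 45.7% and 53.1% at 90 min to 99.0%, 70.5% and 93.5% at 4 hr. None of the 5 genes passed the adjusted threshold (0 of 5, against 0.0267% of all genes lower in edgeR), and 2 had an unadjusted p under 0.05. The median log2 difference of the 5 genes was -0.63 at 90 min and -0.39 at 4 hr, where that of all genes was 0.02 and 0.01. For the 28 known targets of IL-2 and STAT5 described below it was -0.33 and -0.48, so a lower level with IL-2-REH was not particular to these genes.

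**Figure D2:**
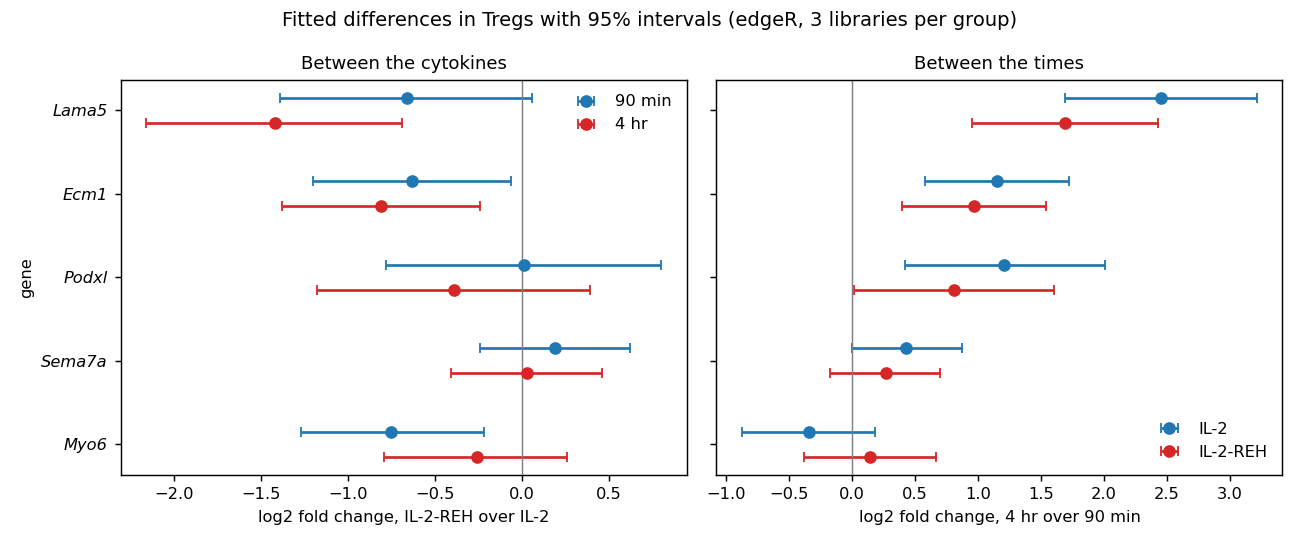
Fitted log2 fold changes with 95% intervals from edgeR in Tregs (3 libraries per group), IL-2-REH over IL-2 on the left and 4 hr over 90 min on the right. Lama5 at 4 hr lies farthest below 0 between the cytokines (-1.42) and farthest above 0 between the times with IL-2 (2.45), while the intervals of Sema7a span 0 in both cytokine comparisons.

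The 2 times were also compared within each cytokine. From 90 min to 4 hr of IL-2, 4 of the 5 genes (Lama5, Ecm1, Podxl and Sema7a) had all 3 later libraries above all 3 earlier ones, as 8.51% of all genes did, and Myo6 had all 3 below, as 8.62% did. Lama5 rose further by 2.45 on the log2 scale (SE 0.35, 95% interval 1.69 to 3.21), which just missed the threshold (adjusted p = 0.056 in edgeR) and passed it with the replicate block (2.37, adjusted p = 0.0057). Ecm1 was higher by 1.15 (95% interval 0.58 to 1.72, adjusted p = 0.162 in edgeR, 0.04 with the block) and Podxl by 1.21 (0.42 to 2.01, adjusted p = 0.209 in edgeR, 0.091 with the block). Sema7a differed by 0.43 (-0.00 to 0.87) and Myo6 by -0.34 (-0.87 to 0.18). So 0 of 5 genes were past the threshold in edgeR, where 0% of all genes were and 2551 genes had an unadjusted p under 0.05, 3 of them listed here. With the block there were 2 of 5 (0.167% of all genes), and with DESeq2 3 of 5 (1.62%). The call of Lama5 depended on single libraries. Its adjusted p in edgeR was 0.025 without unstimulated replicate 1 (where 0.381% of all genes rose), 0.041 without unstimulated replicate 2, 0.015 without IL-2 replicate 1 at 4 hr and 0.046 without IL-2-REH replicate 3 at 4 hr. Without replicate 1 in every group Lama5 and Ecm1 passed (adjusted p = 0.018 and 0.036 in edgeR, where 2.6% of all genes rose), and over all fits that left libraries out the adjusted p of Lama5 ran from 0.015 to 0.96.

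With IL-2-REH, the same 4 genes had all later libraries above all earlier ones (4 of 5, against 12.2% of all genes), and Myo6 overlapped. The log2 changes from 90 min to 4 hr were 1.69 for Lama5 (95% interval 0.95 to 2.43, adjusted p = 0.196 in edgeR, 0.059 with the block), 0.97 for Ecm1 (0.40 to 1.54), 0.81 for Podxl (0.02 to 1.60), 0.27 for Sema7a (-0.17 to 0.70) and 0.14 for Myo6 (-0.38 to 0.67). Again 0 of 5 passed in edgeR (0% of all genes, with 2187 at an unadjusted p under 0.05), and 2 of 5 passed with DESeq2 (0.927%). Without replicate 1 in every group, Lama5 passed at 1.89 (adjusted p = 0.03 in edgeR, where 1.98% of all genes rose). The change of the difference between the cytokines from 90 min to 4 hr was -0.76 for Lama5 (95% interval -1.78 to 0.26) and 0.49 for Myo6 (-0.26 to 1.23), and 0 of 5 genes passed (0% of all genes in edgeR and 0 with DESeq2, with 47 genes at an unadjusted p under 0.05). These comparisons share libraries, so their values are given side by side and not counted as separate support.

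In CD8+ T cells, the 5 genes were lower than in Tregs, except Myo6 in unstimulated cells. There it was at 0.716 RPKM, within the Treg range of 0.642 to 1.56. The CD8+ library lay below all 3 Treg libraries of the same condition in 24 of 25 cases, and the exception was Myo6 in unstimulated cells. Of all genes tested, 35.3% lay so in unstimulated cells, 34.2% and 35.1% at 90 min and 4 hr of IL-2, and 38.7% and 39.4% at 90 min and 4 hr of IL-2-REH. The mean Treg level was 18.9 to 73.7 times the CD8+ level for Ecm1, 5.04 to 67.4 times for Lama5, 3.18 to 17.0 times for Podxl, 1.39 to 17.4 times for Sema7a and 1.58 to 7.81 times for Myo6. The stimulated conditions use Treg libraries whose high values chose the genes. By the study's methods, mouse line and way of isolation also differed between the cell types and cannot be told apart from cell type. With 1 library per group there is no test, and the intervals below cover counting error only.

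Ecm1 was at 2.57 RPKM in unstimulated CD8+ T cells, at 5.45 and 19.7 after 90 min and 4 hr of IL-2, and at 1.75 and 3.15 after 90 min and 4 hr of IL-2-REH. At 4 hr, the ratio to the unstimulated library was 7.67 for IL-2 (95% exact interval 6.81 to 8.68) and 1.22 for the variant (1.05 to 1.42). IL-2-REH over IL-2 was 0.321 at 90 min (0.274 to 0.375) and 0.160 at 4 hr (0.144 to 0.177). Only the IL-2 libraries of the CD8+ cells stood well above the unstimulated one for this gene.

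Myo6 was at 0.716 RPKM unstimulated, at 1.52 and 2.248 with IL-2 and at 0.465 and 0.498 with IL-2-REH. Sema7a was at 0.323 unstimulated, at 1.42 and 1.25 with IL-2 and at 0.191 and 0.173 with IL-2-REH. In both genes, IL-2 was above and IL-2-REH below the unstimulated library at both times. The ratio of IL-2-REH to IL-2 was 0.307 (95% exact interval 0.264 to 0.356) and 0.222 (0.194 to 0.253) in Myo6, and 0.135 (0.0941 to 0.188) and 0.138 (0.0972 to 0.193) in Sema7a, at 90 min and 4 hr. Lama5 held 48 reads unstimulated, 59 and 137 with IL-2 and 57 and 72 with IL-2-REH, and its largest ratio to the unstimulated library was 2.59 (1.85 to 3.67) at 4 hr of IL-2. Podxl held 2 to 18 reads, too few to order its conditions.

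Of the 5 genes, Ecm1 and Myo6 passed the minimum of 1 RPKM on average over the CD8+ libraries that left 10021 genes. Counted by an absolute log2 ratio of RPKM + 1 above 1, which shrinks changes of rare genes, neither was higher with IL-2 than unstimulated at 90 min (2.81% of genes were), and Ecm1 was at 4 hr (1 gene, 2.54, against 1.31%). Neither was higher with IL-2-REH at 90 min (2.46% of genes) or at 4 hr (1.78%). Lower with IL-2-REH than with IL-2 were Ecm1 at 90 min (-1.23, against 0.808% of genes) and both genes at 4 hr (Ecm1 -2.32, Myo6 -1.12, against 1.68%). Myo6 reached the minimum only through its IL-2 libraries, so nothing is read from its part in that count.

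**Figure D3:**
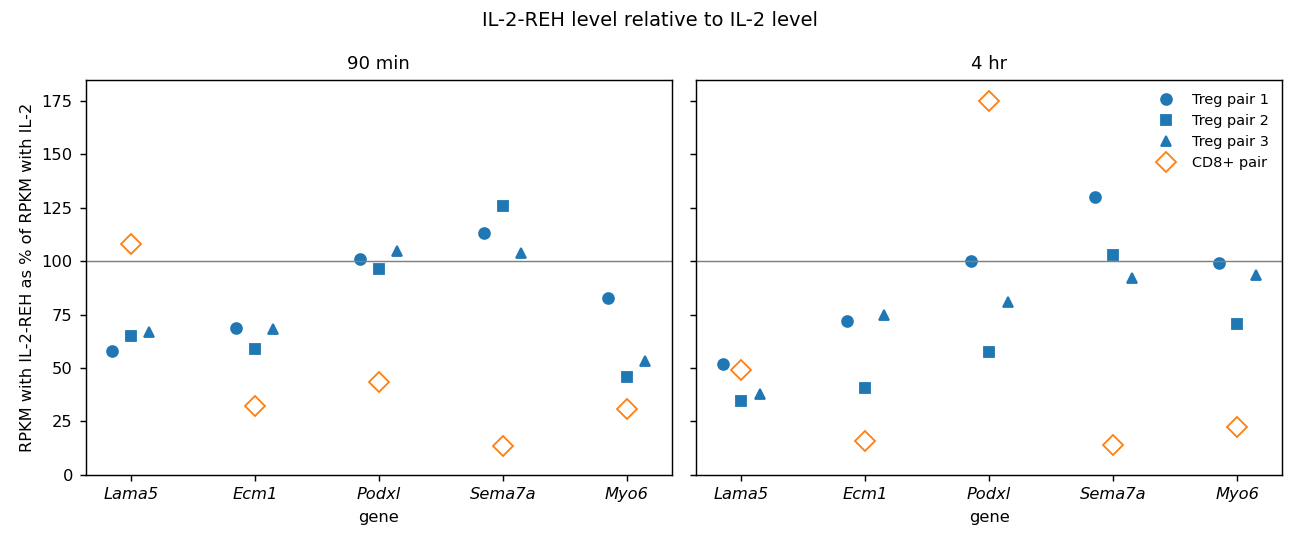
RPKM with IL-2-REH as a percentage of RPKM with IL-2 at 90 min (left) and 4 hr (right), for 3 same-numbered Treg pairs (filled) and the CD8+ pair (open diamonds), with a line at 100%. Sema7a lies between 92.3% and 130% in Tregs and at 13.5% and 13.8% in CD8+ T cells, while the Podxl diamonds rest on 7 to 18 reads each.

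Laminins are secreted as trimers, so the RNA of the other chains was read from a list of 21 other laminin and basement membrane genes. Whether a listed chain joins alpha 5 was not tested. Lamc1, the gamma 1 chain, was at 17.0 ± 13.1 RPKM in unstimulated Tregs and at 27.4 ± 4.44 after 4 hr of IL-2 (SD, n = 3 each), and at most 0.430 in CD8+ T cells. Its unstimulated Treg libraries ranged from 7.98 to 32.1 RPKM and those of 4 hr of IL-2 from 22.6 to 31.4. Its log2 fold change at 4 hr of IL-2 was 0.69 (SE 0.43, adjusted p = 0.43 in edgeR). The beta chains were scarce: Lamb1 and Lamb2 did not exceed 0.0843 and 0.0408 RPKM in any Treg library, and Lamb3 had group means of 0.443 to 1.14. No other alpha chain (Lama1 to Lama4) exceeded 0.125 RPKM. Of the 21 genes, Lamc1 and Agrn (agrin, a basement membrane proteoglycan) had a mean of at least 1 RPKM over the Treg libraries. In edgeR, 0 of the 16 tested genes of this list passed the threshold in any comparison. With the block, 1 rose and 1 fell at 4 hr of IL-2 in edgeR (2.85% and 4.06% of all genes). Lama1 rose by 2.61 (adjusted p = 0.011) from a mean of 0.0128 to 0.0613 RPKM, and Nid2 (nidogen 2) fell by 1.32 (adjusted p = 0.023) and by 1.65 at 4 hr of IL-2-REH (adjusted p = 0.013).

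**Figure D4:**
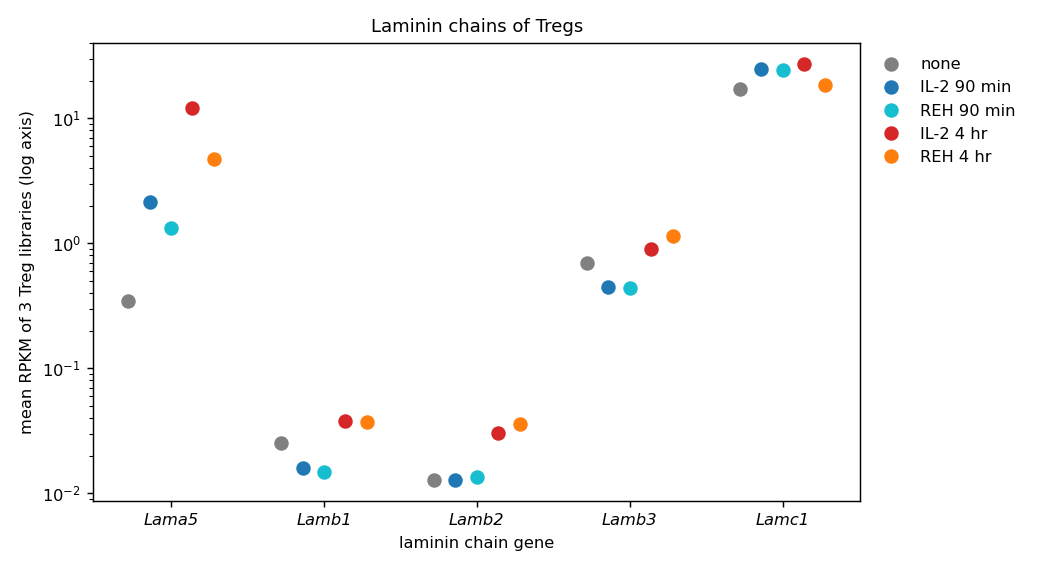
Mean RPKM of 3 Treg libraries per group on a log axis for the laminin chain genes Lama5, the 3 beta chains Lamb1, Lamb2 and Lamb3, and Lamc1, each with 5 points for the unstimulated (none), IL-2 and IL-2-REH (REH) groups. The group means of Lama5 span 0.346 to 11.98 RPKM and those of Lamc1 17.0 to 27.4, and the means of Lamb1 and Lamb2 reach 0.0381 and 0.0357. Single unstimulated libraries of Lamc1 range from 7.98 to 32.1 RPKM.

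RNA of several laminin receptors was found in Tregs in every condition, and these data hold no protein values. Among the laminin receptors, Itga6 and Itgb1, the chains of integrin alpha 6 beta 1, were at 42.0 ± 8.66 and 46.1 ± 5.14 RPKM in unstimulated Tregs, Dag1 (dystroglycan) at 7.22 ± 1.10 and Bcam, a receptor of the alpha 5 chain, at 2.56 ± 0.740 (SD, n = 3 each). In CD8+ T cells Bcam did not exceed 0.0429 RPKM. In edgeR, 1 of the 22 tested matrix receptors rose with IL-2 at 4 hr, Itgb3 (integrin beta 3) by 0.98 (adjusted p = 0.021), which also rose at 90 min by 0.96 (adjusted p = 0.036). Itgae, the alpha chain of CD103, fell by 1.76 at 4 hr of IL-2, and Itgal, the alpha chain of LFA-1, fell by 1.35 (adjusted p = 0.032 each in edgeR), where 1.1% of all genes were lower. None of the 22 passed with IL-2-REH at 90 min or 4 hr. With the block, 2 were higher and 4 lower after 4 hr of IL-2 (2.85% and 4.06% of all genes), and IL-2-REH gave 1 and 3 at that time (1.01% and 2.02%), among them Itgal in both and Cd44, the hyaluronan receptor, which fell by 1.07 and 1.16 (adjusted p = 0.031 and 0.035 in edgeR with the block). The list's median log2 fold change at 4 hr was -0.11 for IL-2 and -0.42 for the variant, where the medians of all genes were -0.00 and 0.01.

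Plxnc1, the plexin that binds semaphorin 7A, was at 5.96 ± 0.511 RPKM in unstimulated Tregs and 4.37 ± 1.75 at 4 hr of IL-2, and Itga1, the other known partner chain, was at 0.126 ± 0.0631 unstimulated (SD, n = 3 each). Of 25 tested semaphorins and receptors other than Sema7a, 0 rose and 2 fell with IL-2 at 4 hr in edgeR: Cd72, a lectin of B cells that binds semaphorin 4D, by 2.67 (adjusted p = 0.028), and Sema4b by 0.74 (adjusted p = 0.024). Cd72 was at 10.2 ± 5.58 RPKM unstimulated and at 1.51 ± 0.694 with IL-2 (SD, n = 3 each). The summed B cell markers overlapped between those groups (2.41 to 17.1 and 2.69 to 7.64), and their part in Cd72 was not tested. None of the 25 passed at 90 min or after IL-2-REH in edgeR. With the block, 1 was higher and 3 lower at 90 min of IL-2 (1.37% and 0.46% of all genes), 1 higher and 5 lower at 4 hr of IL-2 (2.85% and 4.06%), and 0 higher and 3 lower at 4 hr of IL-2-REH (1.01% and 2.02%). The one that rose was Nrp2 (neuropilin 2, a receptor of secreted semaphorins), by 1.34 and 1.05 at 90 min and 4 hr of IL-2, and Sema4a fell by 2.18 at 4 hr of IL-2 (adjusted p = 0.031, 0.045 and 0.0007 in edgeR with the block). No semaphorin ligand other than Sema7a rose past the threshold in either fit.

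Of the sialomucins and partners of podocalyxin, 9 of 15 had a mean of at least 1 RPKM over the Treg libraries, and of the myosin VI adaptors 10 of 13. Ezr (ezrin) was at 130 ± 57.6 RPKM and Slc9a3r1 (NHERF1) at 93.3 ± 7.93 in unstimulated Tregs, whereas Slc9a3r2 (NHERF2) averaged 0.0575 over the Treg libraries, and 0 of 11 tested sialomucins and partners passed in edgeR (with the block, Selp rose at 90 min of IL-2, by 1.08, adjusted p = 0.033). The sialomucins Spn (CD43) and Selplg (PSGL-1) were at 107 ± 12 and 108 ± 15.7 RPKM unstimulated, far above Podxl at 0.0426 ± 0.0112 (SD, n = 3 each). Of the myosin VI adaptors, Tax1bp1 was at 67.7 ± 21.7, Gipc1 at 9.29 ± 4.25 and Optn at 1.57 ± 0.654 RPKM unstimulated (SD, n = 3 each), and 0 of 12 tested passed in edgeR. Dab2, Sh3tc2 and Calcoco2 were low, with means of 0.027, 0.0152 and 0.692 RPKM over the Treg libraries. Of 18 tested unconventional myosins other than Myo6, Myo1h fell by 1.23 with IL-2 at 4 hr (adjusted p = 0.024 in edgeR), and none rose. With the block, Myo1c and Myo1d rose there, by 0.95 and 2.52 (adjusted p = 0.032 and 0.02 in edgeR), and Myo7a also fell, by 1.07 (adjusted p = 0.045), so that 2 of 18 rose and 2 fell, where 2.85% and 4.06% of all genes did. None of the 21 tested secreted matrix genes listed beside Ecm1 passed in edgeR, and with the block 3 fell at 4 hr of IL-2 (4.06% of all genes): Mmp9 by 2.72, Tgfbi by 1.71 and Lgals1 by 0.95 (adjusted p = 0.0054, 0.0057 and 0.037 in edgeR). Mmp9 and Tgfbi are also genes of macrophages, whose summed markers were 14.6 to 54.5 RPKM in unstimulated Tregs and 7.66 to 25.6 after 4 hr of IL-2, and their part in these values was not tested.

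Known targets of IL-2 and STAT5 give the scale of the response. Of 28, 5 rose at 90 min of IL-2 in edgeR (the most changed were Socs1 by 2.28, Cish by 2.12, Pim2 by 1.78 and Socs2 by 1.74), and 7 rose and 1 fell (Il7r, by 1.37) at 4 hr. At 90 min of IL-2-REH, Cish rose, by 1.10, and at 4 hr 0 of 28 passed (5 higher and 1 lower with the block, where 1.01% and 2.02% of all genes were). With the block, 12 rose and 2 fell at 4 hr of IL-2, where 2.85% and 4.06% of all genes did. Cish and Socs genes encode inhibitors of cytokine receptors, and Pim2 a survival kinase. The list's median log2 fold change at 4 hr was 0.86 for IL-2 and 0.42 for the variant. The 5 genes described here had medians of 3.09 and 2.29 and were chosen on those contrasts. The calls of all these lists depended on the replicates. In edgeR without replicate 2 or without replicate 3 in every group, 0 matrix receptors, semaphorins, myosins or STAT5 targets passed in any of the 4 contrasts with unstimulated cells. The share of all genes in those fits is not given here, so nothing particular to the lists is read from these counts. Without unstimulated replicate 1, more genes passed in edgeR, both in these lists and over all genes. At 90 min of IL-2, 4 matrix receptors were higher and 2 lower, 2 semaphorins and receptors higher and 4 lower, 0 myosins higher and 3 lower, and 12 STAT5 targets higher and 1 lower, where 7.09% of all genes were higher and 5.8% lower. At 90 min of IL-2-REH the counts were 3 and 0, 1 and 3, 0 and 3, and 6 and 1 (6.95% and 5.14% of all genes). At 4 hr of IL-2 they were 2 and 4, 1 and 7, 1 and 2, and 10 and 1 (4.28% and 4.59%), and at 4 hr of IL-2-REH 1 and 4, 0 and 6, 0 and 2, and 7 and 1 (3.3% and 3.62%). Of the laminins and basement membrane genes, 1 was higher and 1 lower in each of the 4 contrasts in that fit, and the other 3 lists had at most 1 gene in either direction.

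Across the 15 Treg libraries, the levels of the 5 genes ran together on the log2(RPKM + 1) scale. Lama5 and Ecm1 were closest, with r = 0.95, and Lama5 and Myo6 least close, with r = 0.64. The genes were chosen for their rise across the 5 groups of libraries, which r therefore holds. Within groups, r was 0.65 for Lama5 and Ecm1, and between -0.40 and 0.52 for the other pairs. Among 10445 other genes tested with a mean of at least 1 RPKM, the 3 closest to Lama5 were Trpc4ap (r = 0.970, rho = 0.975), Ecm1 (r = 0.95, rho = 0.968) and Klc1 (r = 0.908, rho = 0.914). Trpc4ap, an adaptor of a ubiquitin ligase, had group means of 59.9 RPKM unstimulated and 118 and 92.4 at 4 hr of IL-2 and IL-2-REH. Those closest to Ecm1 were Lama5, Trpc4ap (r = 0.912, rho = 0.921) and Gpld1 (r = 0.880, rho = 0.879), a phospholipase that releases glycosylphosphatidylinositol-anchored proteins. Those closest to Podxl were Gpld1 (r = 0.932, rho = 0.900), Maged2 (r = 0.914, rho = 0.911) and Inadl (r = 0.877, rho = 0.871). Those closest to Sema7a were Gm4532 (r = 0.877, rho = 0.886), Spdl1 (r = 0.876, rho = 0.732) and Ecm1 (r = 0.867, rho = 0.793). Those closest to Myo6 were Socs2 (r = 0.944, rho = 0.900), Tiam1 (r = 0.935, rho = 0.882) and Aldh18a1 (r = 0.916, rho = 0.936). Socs2, the STAT5-induced inhibitor, had group means of 13.4 RPKM unstimulated, 39.8 and 23.6 at 90 min and 40.5 and 32.6 at 4 hr of IL-2 and IL-2-REH. Like Myo6, it was near its highest mean already at 90 min of IL-2. With group means removed, r was 0.74, 0.65 and 0.68 for the 3 genes closest to Lama5, 0.65, 0.53 and -0.34 for Ecm1, 0.62, 0.45 and 0.18 for Podxl, -0.06, 0.42 and 0.30 for Sema7a and 0.86, 0.67 and 0.81 for Myo6, in the order given. These correlations describe 15 libraries that share their groups and are given with no test.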

How the data were processed

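RNA of 15 Treg and 5 CD8+ T cell libraries was sequenced (50 bp, single end). The authors mapped reads to mm10 (GRCm38) with Bowtie2 2.2.6 and TopHat2 2.1.1, used only uniquely mapped ones, and give, per RefSeq transcript (31682 in all), a deposited count of reads on its exons with no normalization. They also deposited RPKM values, exon reads scaled by exon length and by all mapped reads (33041984 to 88760887 per Treg library). SAMtools 0.1.8, bedtools 2.25.0 and edgeR are also named in the submitters' processing notes. Strand use is not given in the sources used here, so reads in overlaps are uncertain.

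For each symbol the transcript with most reads over the 20 libraries was used. The 15 Treg libraries entered 1 edgeR 4.0.16 quasi-likelihood fit (R 4.3.3, TMM scaling, genes kept by filterByExpr, a coefficient for each group) of 15009 genes, with Benjamini-Hochberg adjusted p-values. The deviations of libraries with the same number from their groups' means correlated above 0.1 in 30 of 30 pairs (over genes, 0.121 to 0.839, mean 0.538). The mean of -0.257 for other numbers follows largely from taking deviations from group means and adds no further evidence. The numbers, which come from the sample labels, were thus taken to pair the libraries. A fit with the replicate block is given where it changes a call. CD8+ libraries were compared by RPKM ratios with exact 95% conditional binomial (Clopper-Pearson) intervals, and by log2(RPKM + 1) over 10021 genes. Alternatives were DESeq2 1.42.0, limma 3.58.1 on log2(RPKM + 1) and log2(RPKM + 0.1), no low-count filter, only the groups compared, the longest transcript and fits without each replicate or library. The scripts of the edgeR test were tested on simulated counts. Promoters came from RefSeq and exons from GENCODE M21, both on GRCm38.

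Genes named are the 5 listed genes, the 3 genes most correlated with each, up to 4 genes of each list past the test in each direction, and overlapping genes. Partner chains, receptors and adaptors of the list of each gene were named for their known role, after their values were seen. The listed genes and the lists were chosen with earlier results of these data known. Other steps ran in Python 3.11.15 with pandas 2.3.3, numpy 2.4.6, scipy 1.17.1 and matplotlib 3.10.9.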

Additional observations from a re-analysis of the deposited data

Results flagged for a closer look

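In 7 of 30 ratios (5 genes, 6 ratios each), all 3 same-numbered Treg pairs moved one way and the CD8+ pair the other, as log2 ratios of RPKM. The difference between the cell types was not tested, since the CD8+ groups have 1 library. In 5 of the 7 the ratio is to unstimulated cells, where the genes were chosen for a rise in Tregs, so the Treg direction was fixed. The other 2 are of 10 ratios between the cytokines. Of all genes tested with a value in each library that were higher than unstimulated in all 3 Treg pairs, 16% to 27.3% were lower in the CD8+ pair. Of all genes with a value in each library, 15.2% showed opposite directions between the cytokines at 90 min and 11.7% at 4 hr. Both flagged ratios between the cytokines are at 90 min. Of genes higher with IL-2-REH than IL-2 in all 3 Treg pairs then, 54.5% were lower in the CD8+ pair. Of those lower in all 3 Treg pairs, 26.4% were higher in the CD8+ pair. Sema7a showed opposite directions 3 times. For IL-2-REH over IL-2 at 90 min it was 0.18, 0.33 and 0.06 in Treg pairs 1 to 3 and -2.89 in CD8+ T cells. Between IL-2-REH and no stimulation it was 1.50, 1.64 and 1.34 against -0.76 at 90 min, and 2.06, 1.92 and 1.75 against -0.90 at 4 hr. Myo6 with IL-2-REH against no stimulation was 2.85, 0.55 and 1.31 in Treg pairs and -0.62 in CD8+ T cells at 90 min, and 2.78, 1.15 and 1.68 against -0.52 at 4 hr. Ecm1 in the same comparison at 90 min was 1.27, 0.79 and 1.41 against -0.55. Lama5 for IL-2-REH over IL-2 at 90 min was -0.78, -0.62 and -0.58 against 0.11, the last from 57 and 59 reads, with an exact counting interval of the ratio (0.736 to 1.58) that spans 1.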

How the results depend on the processing

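Of 512 alternative values against unstimulated Tregs, 0 changed sign, and 25 moved by more than the spread between pairs, mostly lower values from limma on log2(RPKM + 1) and values of Sema7a. Of 640 values of the other contrasts, 12 changed sign, all near 0, and 24 passed the threshold where edgeR without the block did not. The number of genes higher at 4 hr than 90 min of IL-2, 0 in edgeR, was 2 with the replicate block, 3 with DESeq2, 1 with limma on either scale, 1 with no filter on low counts and 3 with the block without unstimulated replicate 1 (where 5.2% of all genes were higher), and 0 to 2 over the fits that left libraries out. With IL-2-REH it was 0 in edgeR, 2 with DESeq2, 2 with the block without unstimulated replicate 1 (4.72% of all genes) and 0 to 1 over such fits. The number lower with IL-2-REH than IL-2 at 4 hr was 0 in edgeR, 1 with DESeq2, 1 with the block without unstimulated replicate 1 and 0 in each such fit. At 90 min, and for the change between times, it was 0 in each of these fits, the replicate block included. The cause was not tested. The fit with the block and without that library was chosen once the data were known. Reversed values were small: Podxl between the cytokines at 90 min was 0.01, and -0.0037 and -0.01 without replicate 1 or 3, -0.02 and -0.16 without IL-2-REH replicate 1 or 3, -0.14 without IL-2 replicate 2 and -0.01 without unstimulated replicate 3, and up to 0.19 over such fits. Sema7a at 4 hr was 0.03, and -0.0017 with only the groups compared, -0.10 without replicate 1, -0.06 without IL-2 replicate 1 and -0.02 without IL-2-REH replicate 1, and up to 0.15. Myo6 between the times with IL-2-REH was 0.14, and -0.05 without IL-2-REH replicate 2 at 90 min, and up to 0.34. The change for Ecm1 was -0.18, and 0.01 without replicate 2, and down to -0.43. In CD8+ T cells, the genes past the fold with IL-2 numbered 1 in place of 0 at 90 min with a pseudocount of 0.1, and 2 in place of 1 at 4 hr with that pseudocount or with libraries centred on medians. Those lower with IL-2-REH than IL-2 numbered 2 in place of 1 at 90 min with that pseudocount or no filter and 0 with a log2 threshold of 2, and 1 in place of 2 at 4 hr with that threshold or a minimum of 5 RPKM. Shares of all genes are not given here for these CD8+ settings. They are also not given in this section for limma, no filter on low counts and the fits that left libraries out. Nothing is read from the counts of genes in those settings. Depth limits Podxl, and Lama5 in CD8+ T cells.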
